A study of Mus musculus with 8 samples.

Results

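The TGF-beta and activin signals examined here are 10 genes: the TGF-beta ligands Tgfb1, Tgfb2 and Tgfb3, the activin subunits Inhba, Inhbb, Inhbc and Inhbe, the activin-binding protein Fst, the inhibitory SMAD Smad7 and the receptor Tgfbr2. They were taken by name: every non-control probe of the microarray whose gene name equalled that of a member was used, which gave 14 probes for 10 of the 36666 gene names on the array. RNA came from whole livers of male mice at 8 h after acetaminophen, a drug that injures the liver at high dose. Livers from mice of 80 weeks (4 arrays) were set against livers from mice of 8 weeks (4 arrays), all at the same time after the same drug. Strain and dose are not given in the sources used here, livers without acetaminophen were not analysed here, and nothing in the labels says that the 4 samples of an age came from separate animals, so the p-values reflect sample-to-sample spread that could be technical in origin.

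Ligands of the TGF-beta family are secreted as dimers, bind a type II and then a type I receptor kinase, and pass the signal on through SMAD proteins that enter the nucleus. TGF-beta is stored in a latent form outside the cell, activins are dimers of inhibin beta subunits, and follistatin, the product of Fst, binds activins and keeps them from their receptors. In the liver, TGF-beta and activin A restrain the division of hepatocytes and drive stellate cells to make matrix, while the subunits encoded by Inhbc and Inhbe are made mainly by hepatocytes.

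Each value below is the log2 intensity of the gene's probe minus the log2 of its array's 75th percentile, so 0 means a probe as bright as that percentile, and each list of values runs from replicate 1 to replicate 4 of an age. Levels of different probes cannot be set against each other. Genes entered the test if their probe stood well clear of background on 4 or more arrays, which left 17565 genes, and a call means a limma adjusted p under 0.05. Between 43.3% and 50.4% of probes were well above background per array. The 8-week replicates 1 and 2 stood apart from all other arrays: on the first principal component, which held 49.1% of the variance, they lay at -61.3 and -99.2, whereas the 80-week arrays lay between 17.0 and 47.5 and the other 8-week arrays at 10.2 and 12.3. Differences that these 2 arrays moved by over 1.5 times are given with and without them. All arrays were on 1 slide in 1 scan, with the 80-week arrays in row 2 and the 8-week arrays in row 1, so slide row and age cannot be told apart. Hepatocyte markers were present in every sample, with 11 of 11 tested and a summed scaled intensity of 4853 to 7816 in 80-week livers and 3635 to 6972 in 8-week livers. In whole-tissue RNA, fewer cells of a type and less RNA per cell cannot be told apart.

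None of the 10 genes was called between the ages, beside 0.359% of all genes tested (58 higher, or 0.330%, and 5 lower, or 0.0285%, in 80-week livers). At an unadjusted limma p under 0.05 there were 4 of 10 (Inhbe and Inhbc with higher values in 80-week livers, Tgfb2 and Fst with lower ones), beside 14.0% of all genes. The groups did not overlap for 2 of 10, Inhbe (higher) and Tgfb2 (lower), beside 8.38% of all genes, of which 4.62% were higher and 3.76% lower. Tgfb2 is in both counts but passed the filter on dim probes through the 8-week livers, where it is high, so its part in them is a description. The differences were positive for 3 genes and negative for 7, with a median of -0.39 over the 10 and of 0.02 over all genes tested. Adjusted p-values of the members lay between 0.164 and 0.839.

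**Figure D1:**
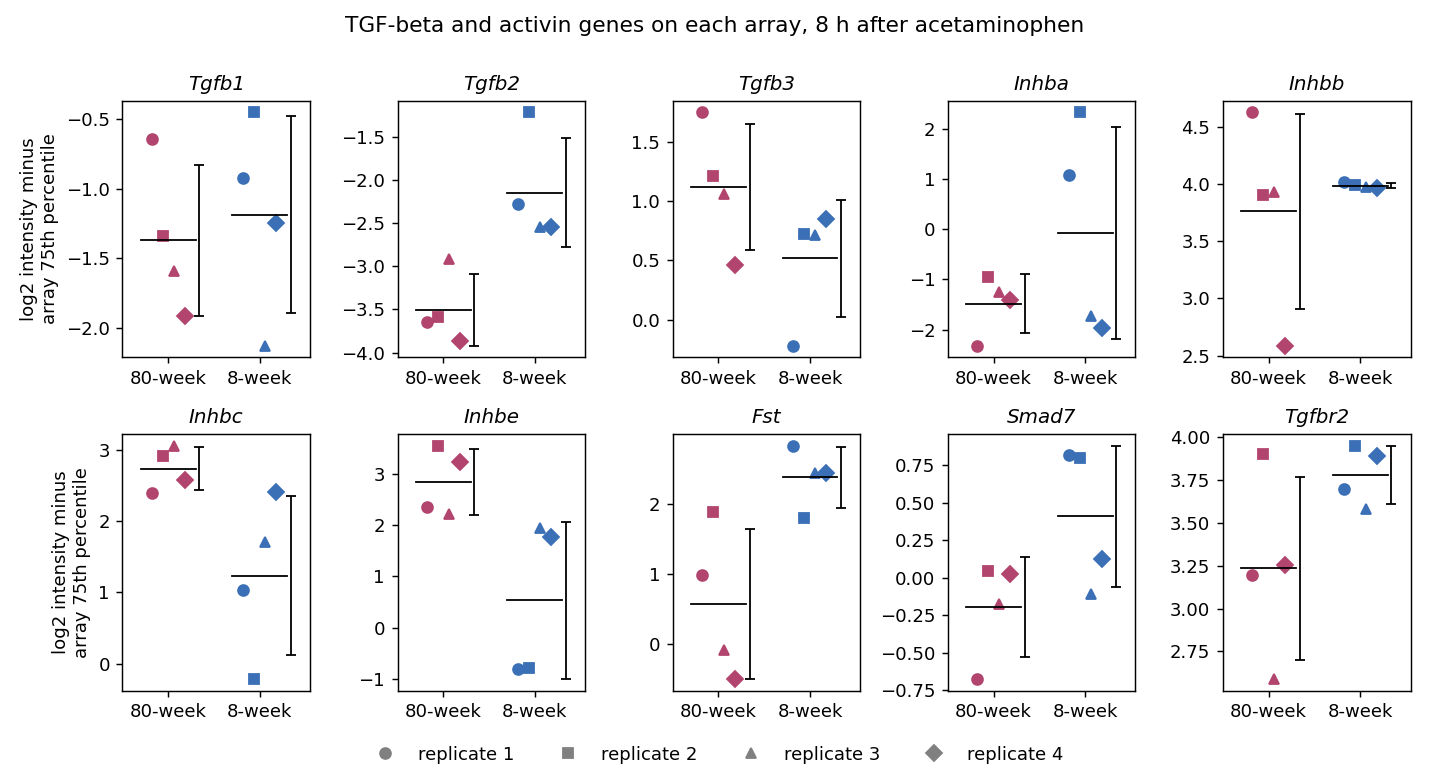
Log2 intensity minus the array's 75th percentile (y axis, a separate scale for each gene) of the 10 genes on each array, with the 80-week livers to the left of the 8-week livers. Symbols mark the replicate number, horizontal lines the mean and error bars the SD of 4 arrays; Inhbe and Tgfb2 are the genes whose ages do not overlap, and 8-week replicates 1 and 2 lie far from 8-week replicates 3 and 4 for Inhba and Inhbe.

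The probes for Tgfb1 and Tgfb2 are shown first because these ligands are close relatives and their probes are the most alike of those used here. Of the 91 pairs among the 14 probes, this pair had the most matching bases, 28 of 41 aligned (68.3%). The pair with the next most was that of Fst and Smad7, with 26 of 56 (46.4%). Whether the Tgfb1 and Tgfb2 probes read each other's RNA was not tested. Bases identical in the alignment of Tgfb1 and Tgfb2 are in capitals. The Tgfb1 probe lies at chr7:26489877-26489936 and the Tgfb2 probe at chr1:188449333-188449392 (build mm9, per the file headers), and both are written as on the array.
Tgfb1: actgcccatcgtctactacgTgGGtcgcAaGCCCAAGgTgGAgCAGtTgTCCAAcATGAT
Tgfb2: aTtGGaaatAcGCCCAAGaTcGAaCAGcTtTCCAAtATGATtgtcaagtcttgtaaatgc

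Tgfb1 encodes the TGF-beta ligand best known from fibrosis, and its values overlapped fully between the ages. It lay at -0.64, -1.34, -1.59 and -1.91 in 80-week livers, against -0.92, -0.45, -2.13 and -1.24 in 8-week livers. The lowest and the highest values both belonged to 8-week arrays. The difference was -0.19 (SE 0.39, adjusted p = 0.839) and turned to 0.31 without 8-week replicates 1 and 2. The gene's other probe was above background on 3 of 8 arrays and gave a difference of 0.86, opposite in sign.

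Tgfb2 encodes a second TGF-beta ligand, and its values were lower in every 80-week liver than in any 8-week liver. They were -3.65, -3.59, -2.91 and -3.87 in 80-week livers, against -2.28, -1.22, -2.54 and -2.54 in 8-week livers. The difference was -1.36 (SE 0.34, unadjusted p = 0.00268, adjusted p = 0.164). The probe was dim: it was well above background on 1 of 4 arrays in 80-week livers and on 4 of 4 in 8-week livers, so the 80-week values lie mostly in the background and the difference is not a measured ratio of levels. With normexp background correction it was -0.50, or -0.52 with quantile normalization as well, and without 8-week replicates 1 and 2 it was -0.96 (adjusted p = 0.383). Its other probe was above background on 2 of 8 arrays and differed by -0.37.

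Tgfb3, the third ligand of this kind, lay on the other side. Its probe (chr12:87397804-87397863) read 1.75, 1.21, 1.06 and 0.46 in 80-week livers, against -0.22, 0.73, 0.71 and 0.85 in 8-week livers. The 80-week replicates 1, 2 and 3 were above all 8-week arrays and 80-week replicate 4 was within them, while 8-week replicate 1 lay far below the rest. The difference of 0.60 (SE 0.33) did not pass the test (adjusted p = 0.417), and it was 0.34 without 8-week replicates 1 and 2.

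The receptor and the feedback inhibitor had values that were lower on average in 80-week livers and did not pass the test. Tgfbr2, the type II receptor that binds TGF-beta, is read by a probe whose listed interval is chr9:115996798-115996807, and it gave 3.20, 3.90, 2.59 and 3.25 in 80-week livers, against 3.70, 3.95, 3.58 and 3.89 in 8-week livers. Only 80-week replicate 2 was within the 8-week values, and the other 80-week arrays were below them. The difference was -0.55 (SE 0.27, adjusted p = 0.387), and it was -0.50 without 8-week replicates 1 and 2. Smad7, which blocks type I receptors and is itself switched on by TGF-beta, lay at -0.67, 0.04, -0.17 and 0.02 in 80-week livers, against 0.82, 0.80, -0.10 and 0.13 in 8-week livers. The 8-week replicates 1 and 2 were the high arrays, and the difference of -0.61 (SE 0.28, adjusted p = 0.362) was -0.21 without them. A further Smad7 probe was above background on 3 of 8 arrays and differed by -0.71.

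Among the activin subunits, the mean of the hepatocyte genes Inhbe and Inhbc was higher in 80-week livers, without passing the test. The ages overlapped for Inhbc, Inhba and Inhbb and not for Inhbe. Inhbe encodes the subunit of activin E. Its probe (chr10:126786719-126786778) read 2.36, 3.55, 2.22 and 3.23 in 80-week livers, against -0.80, -0.78, 1.94 and 1.78 in 8-week livers. All 80-week arrays were above all 8-week arrays, by a small gap from 8-week replicates 3 and 4 and a large one from replicates 1 and 2. The difference was 2.30 (SE 0.68, unadjusted p = 0.0076, adjusted p = 0.242), a 4.94-fold ratio with a 95% confidence interval of 0.77 to 3.83 on the log2 scale. Without 8-week replicates 1 and 2 it was 0.98 (adjusted p = 0.549).

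Inhbc encodes the subunit of activin C and lies beside Inhbe on chromosome 10, with 0 genes between them in the RefSeq table and 7086 bases between their probes in mm9. The Inhbc probe (chr10:126793865-126793924) gave 2.40, 2.92, 3.06 and 2.57 in 80-week livers, against 1.04, -0.21, 1.70 and 2.40 in 8-week livers. The highest 8-week array, replicate 4, was level with the lowest 80-week array, replicate 1, so the groups touched. The difference was 1.50 (SE 0.48, unadjusted p = 0.012, adjusted p = 0.276), a 2.84-fold ratio, and it was 0.68 (adjusted p = 0.546) without 8-week replicates 1 and 2. The hepatocyte marker list, centred on the 8 arrays, lay between -0.23 and 0.43 in 80-week livers and between -0.77 and 0.35 in 8-week livers, lowest in 8-week replicate 2. The pericentral hepatocyte list had 14 of 14 tested genes positive, beside 9132 of 17565 over all genes tested. Of the 14, 10 were higher and 0 lower at an unadjusted limma p under 0.05, beside 7.91% and 6.13% of all genes. The ages did not overlap for 4, all higher, beside 4.62% of all genes. The list's 1 call, beside 0.330% of all genes called higher, was Slc1a2 (difference 4.39, adjusted p = 0.0127), well above background on all 8 arrays. In the same list, Slc13a3 was well above background on 4 80-week arrays and 1 8-week array, and Lgr5 on 3 and 1. Slc13a3 and Lgr5 passed the filter on dim probes largely through the 80-week livers, where they are high, so their part in these counts is a description. The list's summed scaled intensity was 1002 to 1556 in 80-week livers and 526.5 to 1115 in 8-week livers. Each of its 15 genes was well above background on some array. The part of either list in the values of Inhbe and Inhbc was not tested.

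Because Inhbe and Inhbc are neighbours whose values were both higher on average in 80-week livers, their promoters are shown, 250 bases before and 50 bases from the gene start, on the minus strand of GRCm38.p6 from RefSeq. The Inhbe window is chr10:127351799-127352098 and the Inhbc window chr10:127370499-127370798. Capitals mark motif matches found by a search of both strands.
Inhbe: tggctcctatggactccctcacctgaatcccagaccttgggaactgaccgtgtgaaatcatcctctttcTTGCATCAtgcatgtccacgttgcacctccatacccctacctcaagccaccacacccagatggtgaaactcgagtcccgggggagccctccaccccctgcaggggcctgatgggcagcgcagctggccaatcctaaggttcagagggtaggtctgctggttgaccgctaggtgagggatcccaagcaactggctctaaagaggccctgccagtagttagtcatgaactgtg
Inhbc: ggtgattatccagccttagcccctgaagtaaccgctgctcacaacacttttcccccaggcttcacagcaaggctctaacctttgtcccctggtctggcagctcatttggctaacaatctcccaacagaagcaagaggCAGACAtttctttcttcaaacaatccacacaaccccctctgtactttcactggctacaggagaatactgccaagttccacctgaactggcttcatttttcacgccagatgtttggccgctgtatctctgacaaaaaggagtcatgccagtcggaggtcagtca

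Promoters were in the table for 7 of the 10 genes. The Inhbe window held TTGCATCA at -181, which is TGATGNAA, the sequence that C/EBP and ATF proteins can bind together, read on the other strand, and 3.97% of 32851 promoters held that motif. The Inhbc window held CAGACA, a sequence that contains the SMAD-binding core, at -113, as did the Tgfb2 window at -204, and 21.04% of all promoters held it. Tgfb2 also held the E-box CACGTG at -51, which 7.15% of promoters held. None of the 7 windows held GTCTAGAC, TGANTCA (AP-1) or TGACGTCA (the cAMP element), which were in 0.21%, 7.81% and 1.79% of promoters. None of the motifs searched overlapped another in these windows, and a match is a run of letters, not a shown binding site.

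Inhba encodes the subunit of activin A, the form induced in inflamed tissue, and its difference rested on 8-week replicates 1 and 2. The probe, shown because Inhba had the widest spread of the 10 genes, lies at chr13:16118634-16118693 (mm9).
Inhba: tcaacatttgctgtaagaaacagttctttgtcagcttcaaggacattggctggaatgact

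Inhba lay at -2.32, -0.94, -1.25 and -1.41 in 80-week livers, against 1.07, 2.33, -1.72 and -1.97 in 8-week livers. The 8-week replicates 1 and 2 were above every other array, and 8-week replicates 3 and 4 were below 3 of the 4 80-week arrays. The difference of -1.41 (SE 0.89, adjusted p = 0.474) turned to 0.37 (adjusted p = 0.782) without those 2 arrays. The monocyte and recruited macrophage list (7 of 9 genes tested, each of the 9 well above background on some array) was also highest there, at 0.48 and 1.40 after centring. It lay between -0.64 and 0.05 in 80-week livers and at -0.44 and -0.49 in 8-week replicates 3 and 4. The 7 tested genes had 3 positive and 4 negative differences, beside 9132 and 8433 of 17565 over all genes tested. Chil3 lay at 4.01 and 5.70 in 8-week replicates 1 and 2, whereas Lyz2 was highest in 80-week replicate 1 (6.92). Gpnmb (difference 1.56) was well above background on 4 80-week arrays and 1 8-week array. It passed the filter on dim probes largely through the 80-week livers, where it is high, so its part in the list is a description. The list's summed scaled intensity was 61.8 to 148.2 in 80-week livers and 68.7 to 199.3 in 8-week livers, and its part in the Inhba values was not tested. Inhba's other probe was above background on 1 of 8 arrays, 8-week replicate 2.

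Inhbb, the subunit of activin B, had nearly the same value on every 8-week array. Its probe (chr1:121312160-121312219) gave 4.63, 3.90, 3.93 and 2.59 in 80-week livers, against 4.01, 3.99, 3.97 and 3.96 in 8-week livers. The SD was 0.85 in 80-week livers and 0.024 in 8-week livers (n = 4 each), and the 80-week values lay on both sides of the 8-week ones. The difference was -0.22 (SE 0.37, adjusted p = 0.795).

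Fst, whose product binds and blocks activins, had lower values in 80-week livers on 3 of 4 arrays. Its probe is shown because this difference was the least changed without 8-week replicates 1 and 2 among the 4 genes at an unadjusted p under 0.05, and because the listed interval, chr13:115244692-115245364 (mm9), spans 673 bases for a probe of 60, so the probe crosses an intron.
Fst: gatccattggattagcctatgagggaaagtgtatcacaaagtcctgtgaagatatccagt

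Fst lay at 0.98, 1.87, -0.08 and -0.49 in 80-week livers, against 2.82, 1.79, 2.44 and 2.43 in 8-week livers. The groups overlapped by 1 array on each side: 80-week replicate 2 was above 8-week replicate 2. The difference was -1.80 (SE 0.48, unadjusted p = 0.00436, adjusted p = 0.2), or 0.287 times the 8-week level, with a 95% confidence interval of -2.89 to -0.71. Without 8-week replicates 1 and 2 it was -1.87 (unadjusted p = 0.023, adjusted p = 0.474). The lowest adjusted p of Fst in any setting was 0.0675, without 80-week replicate 2.

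**Figure D2:**
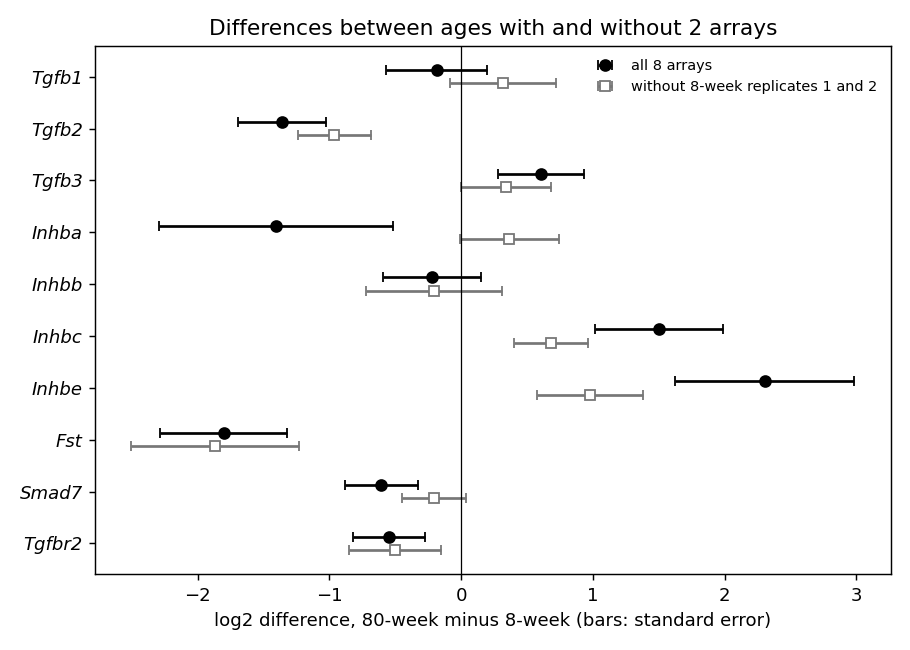
Log2 difference, 80-week minus 8-week (x axis), of the 10 genes (y axis) with all 8 arrays (filled circles) and without 8-week replicates 1 and 2 (open squares); bars are limma standard errors. Fst stays near -1.80, Inhbe lies at 2.30 with all arrays and at 0.98 without the 2, and Tgfb1 and Inhba change sign.

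Of the lists of other cell types and states, the platelet, heat shock and stellate cell lists are described here. The platelet and heat shock lists had lower average values in 80-week livers, and the stellate cell list had differences of both signs. Among lists not described, the median difference was -0.36 for neutrophils (6 of 9 genes tested) and -0.19 for endothelial cells (11 of 11). It was 0.32 for Kupffer cells (10 of 10), 0.31 for T and NK cells (4 of 9), 0.56 for B and plasma cells (4 of 7) and 0.05 for cholangiocytes (3 of 8). Jchain, the 1 call among the 4 B and plasma cell genes (higher, beside 0.330% of all genes), was well above background on 4 80-week arrays and 1 8-week array. So was the cholangiocyte gene Pkhd1. Both passed the filter on dim probes largely through the 80-week livers, where they are high, so their part in these medians is a description. The platelet and megakaryocyte list, named because platelets store TGF-beta, had 6 of 9 genes tested and all 6 negative, beside 8433 of 17565 over all genes tested. Its summed scaled intensity was 2.58 to 14.0 in 80-week livers and 11.2 to 24.1 in 8-week livers. Of the 6, 4 were lower at an unadjusted limma p under 0.05, beside 6.13% of all genes, and 0 were called. Of the 4, Itga2b was well above background on 1 of 4 arrays in 80-week livers and on 4 of 4 in 8-week livers. It passed the filter on dim probes through the 8-week livers, where it is high, so its part in these counts is a description. After centring, the platelet list lay between -1.64 and 0.59 in 80-week livers and at 1.44 and 1.32 in 8-week replicates 1 and 2. The 8-week replicates 3 and 4, at -0.11 and 0.10, were within the 80-week range. The heat shock list had 13 of 14 genes negative, beside 8433 of 17565 over all genes tested, with 1 called lower (beside 0.0285% of all genes). At an unadjusted limma p under 0.05, 11 were lower and 0 higher, beside 6.13% and 7.91% of all genes. The ages did not overlap for 8, all lower, beside 3.76% of all genes. The list's sums were 723.5 to 1163 in 80-week livers and 1467 to 1757 in 8-week livers. The stellate cell list, the main matrix-making cells that answer TGF-beta, had 6 positive and 6 negative differences of 12 genes. At an unadjusted limma p under 0.05, 3 of the 12 were higher (Lrat, Reln and Colec11) and 0 lower, beside 7.91% and 6.13% of all genes, and 0 were called. The ages did not overlap for 2 of them, both higher, beside 4.62% of all genes. The list's sums were 198.4 to 283.3 in 80-week livers and 141.8 to 221.4 in 8-week livers. Each gene of the platelet, heat shock and stellate cell lists was well above background on some array. The part of any list in the values of the 10 genes was not tested.

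**Figure D3:**
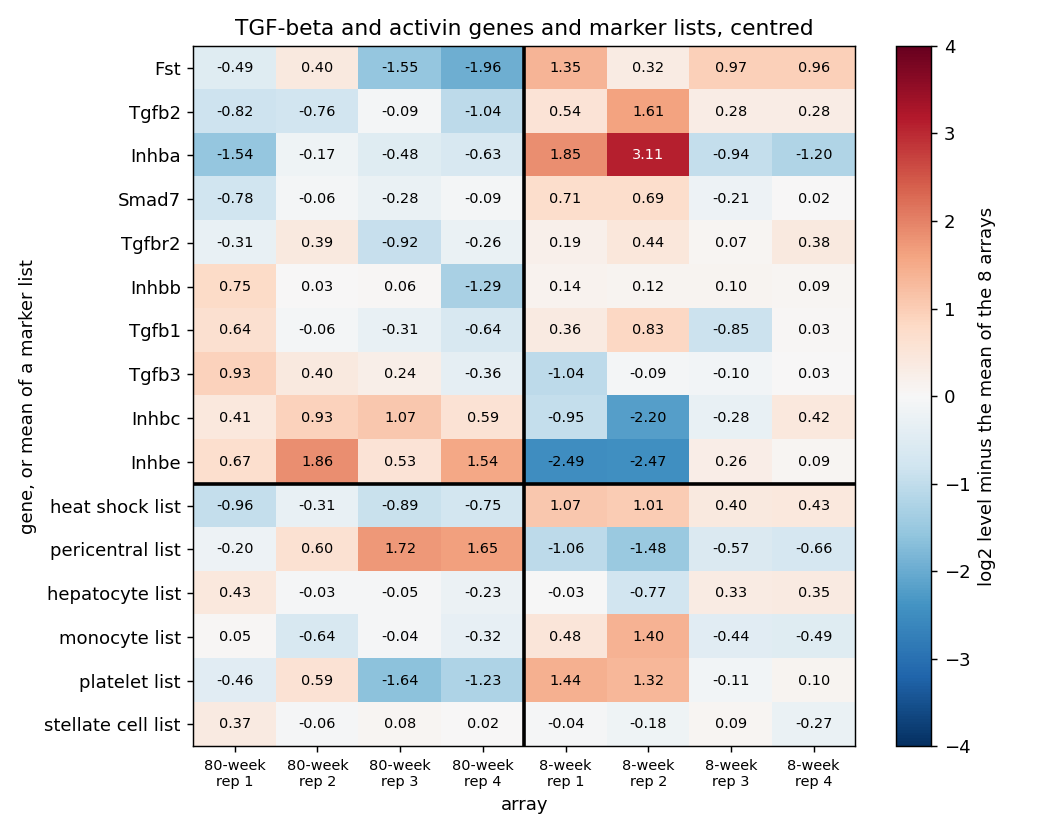
Log2 level minus the mean of the 8 arrays (colour and printed number) of the 10 genes, above the line, and of the mean of 6 marker lists, below it, on each array (x axis, 80-week livers to the left). The 8-week replicates 1 and 2 reach 1.85 and 3.11 for Inhba and -2.49 and -2.47 for Inhbe, and the 80-week arrays are negative for the heat shock list.

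The genes whose profile over the 8 arrays was most like those of the 3 members with the smallest p are given as a description, with points that share arrays and their scaling. For Tgfb2 these were Trib2 (Pearson r = 0.985), Uck2 (0.973) and Chil3 (0.964). For Fst the most like gene was Atg16l2 (r = 0.969), followed by an intergenic interval probe and an unnamed probe (0.954 and 0.947). Inhbe was most like 2810403D21Rik (0.992), Fbxw2 (0.987) and Rnpepl1 (0.987). On the 6 arrays without 8-week replicates 1 and 2, r lay between 0.938 and 0.995 for the 9 pairs. The pairs were picked on the 8 arrays that include these 6, so this is no separate check.

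The rest of the pathway was read from 7 lists of 104 genes, all of them on the array, of which 91 were tested. None was called in either direction. At an unadjusted p under 0.05 there were 6 higher and 6 lower, beside 7.91% and 6.13% of all genes, and the median difference was -0.18, beside 0.02 over all genes tested. Without the 10 genes described above, 81 were tested, 4 were higher and 4 lower at that level, and the median was -0.14. Tgfb2 is among the 6 lower of the 91 and passed the filter on dim probes through the 8-week livers, so its part there is a description. The shares of 7.91% and 6.13% of all genes also stand beside the counts of each list below. Apart from the 10 genes described above and Hamp, the genes named from each list below are those with the smallest p among its other genes.

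Among the ligands, 16 of 20 were tested, with 4 higher and 1 lower at an unadjusted p under 0.05 and a median of -0.18. The 1 lower was Tgfb2, which passed the filter on dim probes through the 8-week livers, where it is high. Bmp5, a bone morphogenetic protein, lay at 1.68, 1.20, 1.47 and 1.54 in 80-week livers, against 1.07, 0.59, 0.72 and 0.59 in 8-week livers, without overlap. Its difference was 0.73 (adjusted p = 0.194), and it was 0.82 without 8-week replicates 1 and 2. Bmp7, another bone morphogenetic protein, also did not overlap, with -0.91, -0.07, -0.41 and -0.16 in 80-week livers, against -1.43, -2.91, -1.60 and -1.08 in 8-week livers (difference 1.37, adjusted p = 0.223, and 0.95 without 8-week replicates 1 and 2). Gdf2, which encodes the ligand BMP9 made by stellate cells, differed by 0.42 (adjusted p = 0.421).

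Receptors and co-receptors had 14 of 16 tested, with 0 higher and 1 lower at an unadjusted p under 0.05, 3 positive and 11 negative differences, and a median of -0.18. Tgfbr1, the type I receptor partner of Tgfbr2, differed by -0.69 (adjusted p = 0.339), and by -0.35 without 8-week replicates 1 and 2. Bambi, a decoy receptor, differed by -0.34 and Acvr2a, a type II activin receptor, by -0.39, with adjusted p-values of 0.475 and 0.517. Without those 2 arrays their differences were -0.23 and -0.15.

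The SMAD list had 7 of 8 tested, with 1 higher and 1 lower at an unadjusted p under 0.05. Smad3, the SMAD that carries TGF-beta and activin signals, lay at 0.48, 1.51, 0.53 and 1.15 in 80-week livers, against 4.36, 3.46, 1.58 and 1.79 in 8-week livers. All 80-week arrays were below all 8-week arrays, and 8-week replicates 1 and 2 were far above the rest. The difference was -1.88 (SE 0.59, adjusted p = 0.263), and it was -0.77 (adjusted p = 0.553) without those 2 arrays. Smad6, an inhibitory SMAD of the bone morphogenetic protein arm, differed by 0.61 (adjusted p = 0.346). Smad5, a SMAD of the same arm, differed by -0.52 (adjusted p = 0.559) and turned to 0.27 without 8-week replicates 1 and 2.

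Extracellular binding proteins had 11 of 15 tested, with 0 higher and 3 lower at an unadjusted p under 0.05, Fst being 1 of the 3. Bmper, which binds bone morphogenetic proteins, had values of -1.82, -1.95, -2.25 and -1.85 in 80-week livers, against -0.29, 0.01, -1.73 and -1.73 in 8-week livers, without overlap. Its difference of -1.03 (adjusted p = 0.326) was -0.24 without 8-week replicates 1 and 2. Chrd, which encodes chordin, another such binding protein, differed by -0.67 (adjusted p = 0.339), and by -0.70 without them. Fstl1, a follistatin-like secreted protein, differed by -0.52 (adjusted p = 0.468), and by -0.06 without them.

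The latency and activation list had 10 of 12 tested, with none at an unadjusted p under 0.05 and a median of -0.06. Ltbp4, which binds latent TGF-beta in the matrix, differed by 0.60, Thbs1, an activator of latent TGF-beta, by -1.32, and Nrros, which holds latent TGF-beta on macrophages, by -0.35, with adjusted p-values of 0.384, 0.395 and 0.503. Without 8-week replicates 1 and 2 these differences were 0.27, -0.51 and -0.20. The intracellular regulators had 15 of 15 tested, with 1 higher and 0 lower at an unadjusted p under 0.05. That gene, Skil, a repressor of SMAD activity and itself a TGF-beta target, differed by 0.43 (adjusted p = 0.354) without overlap between the ages. The ubiquitin ligase gene Smurf2 differed by -0.46 and Strap, which binds TGF-beta receptors, by -0.47. Without 8-week replicates 1 and 2, Skil differed by 0.24, Smurf2 by -0.18 and Strap by -0.18.

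Target genes had 22 of 23 tested, with Skil the 1 at an unadjusted p under 0.05, 9 positive and 13 negative differences, and a median of -0.19. Tagln, an actin-binding protein of contractile cells, differed by -0.84 (adjusted p = 0.381), and Ccn2, a matricellular growth factor, by -1.77 (adjusted p = 0.385), and without 8-week replicates 1 and 2 the differences were -0.43 and -0.57. Hamp, which encodes the iron hormone hepcidin, was singled out from the list after its values were seen. It lay at 7.72, 7.35, 7.97 and 7.31 in 80-week livers, against 3.27, 4.01, 7.88 and 7.86 in 8-week livers. The 8-week replicates 1 and 2 were the low arrays, while 8-week replicates 3 and 4 lay within the 80-week values. The difference of 1.83 (adjusted p = 0.419) turned to -0.29 without 8-week replicates 1 and 2.

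**Figure D4:**
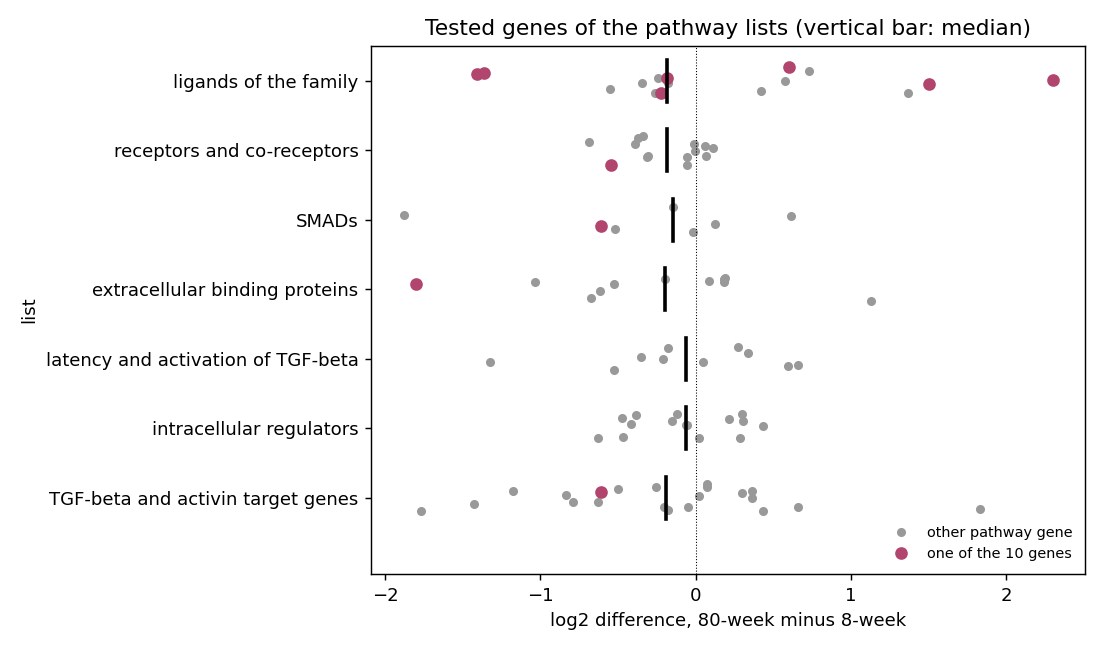
Log2 difference, 80-week minus 8-week (x axis), of every tested gene in the 7 pathway lists (y axis); large points are the 10 genes described here, small points the other pathway genes and vertical bars the list medians, from -0.20 to -0.06. No point passes the test.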

How the data were processed

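Liver RNA of 8 samples was measured on 1-colour Agilent arrays. Per the file headers, the authors' scanner files hold the processed intensity of each spot from Feature Extraction 10.7.3.1 with probe coordinates in mm9; the submitters' processing notes name version 9.1. The authors' deposited value table is on the linear intensity scale, with column medians of 14.2 to 28.1, and matched the scanner files' processed signal within 1% for 100% of 56605 probes on every array. Centring and direction do not arise, since it holds uncentred single-channel values.

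Control and outlier spots were left out, spots of a probe averaged, and log2 of the processed intensity taken minus each array's 75th percentile (154.7 to 352.8 intensity units). Each gene is represented by 1 probe, the brightest on average among those past the filter; the other probes of a member are given in the text. Ages were compared with limma 3.58.1 (lmFit and eBayes, R 4.3.3), with Benjamini-Hochberg adjustment over 17565 genes, after a check on simulated data. The arrays' number limits the precision. Of the tested names, 13828 matched a RefSeq symbol (GRCm38.p6) and 3737 kept the array's name. The text names all 10 members, the up to 3 other genes of each pathway list with the smallest unadjusted p and, for 3 members, the 3 genes most like them. Hamp and some genes of the marker lists are also named. The members and lists were chosen with earlier results of these data known. Scaling, background correction, filter, probe choice, weights, a replicate block and left-out arrays were tried as alternatives. A planned comparison of protein sequences was not run, and 1 listed target gene is counted but not reported here.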

Additional observations from a re-analysis of the deposited data

Results flagged for a closer look

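Across 62 sets of 4 arrays (each named gene in each age), 2 held an array far from the other 3, or 3.23%, and chance marks about 5%. Tgfb3 in 8-week livers had replicate 1 at -0.22, with the other 3 arrays between 0.71 and 0.85. Bambi in 80-week livers had replicate 1 at 1.31, with the other 3 between 0.95 and 0.97.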

How the results depend on the processing

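Over 22 other settings (8 leaving out a single array and 14 others), 0 of the 10 genes and 0 of the 91 tested pathway genes were called in any. Of 681 values of the 31 named genes, 672 kept their direction and side of the threshold. Part of this share was fixed in advance, since some settings, such as the replicate block, leave the difference itself unchanged. The lowest adjusted p of a member was 0.0675. The sign turned with array weights for Tgfb1 (0.19), Inhba (0.12) and Smad5 (0.0905), without 8-week replicate 2 for Tgfb1 (0.0593, with a range of -0.50 to 0.0593 over the single omissions), without 80-week replicate 4 for Inhbb (0.17, with a range of -0.51 to 0.17), and without 8-week replicates 1 and 2 together for Tgfb1 (0.31), Inhba (0.37), Smad5 (0.27) and Hamp (-0.29). Over all genes, 63 were called, against 21 (of 15479 tested) with probes above background on all arrays, 172 with array weights and 14 without 8-week replicates 1 and 2. Leaving out 1 array gave 27 to 77 calls, with 27 without 8-week replicate 1, 38 without 80-week replicate 3 and 39 without 80-week replicate 4. Scaling to the array median moved the median of all genes by -0.10. Tgfb2 has no value where every array must be above background. Where not shown by fewer arrays or probes, the cause was not tested. With a replicate block, 70 genes were called, 0 of them members or pathway genes. After each gene's mean within its age was removed, same-numbered arrays of both ages correlated at 0.026, 0.141, 0.114 and 0.104. Of the 4 numbers, 2 matched best with their own, so the numbers were not taken to pair the samples. Signal over background limits Tgfb2 and the second probes of Tgfb1, Tgfb2, Inhba and Smad7.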
